A study of Danio rerio with 15 samples.

Results

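In whole zebrafish larvae, 18 transcripts were higher at acetochlor 7.8 µM than in untreated larvae and in larvae at acetochlor 780 nM, while their group means at both tefluthrin concentrations stayed close to control. They are 18 of the 64995 transcripts measured, and of the 23895 that met the conditions on level. They were selected on the measured values of these same libraries. Counts were scaled by median-of-ratios size factors, and differences were taken between log2(group mean + 5). A transcript needed a control mean of at most 10000 scaled counts, a highest group mean of at least 50, a difference of at least 0.4 between acetochlor 7.8 µM and control, and an absolute difference under 0.3 between each tefluthrin group and control. Each of the 3 libraries at acetochlor 7.8 µM also had to lie above every control and every acetochlor 780 nM library. The rule allowed up to 100 transcripts, and 18 passed. What the rule used is given here as a description and is no finding.

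Acetochlor is a chloroacetanilide herbicide that blocks the elongation of very long chain fatty acids in plants, and chloroacetanilides are oxidised by cytochrome P450 enzymes and conjugated to glutathione in mammals. Tefluthrin is a pyrethroid insecticide, a class known for holding voltage-gated sodium channels open in nerve cells. A response to a chemical in a whole larva can come from any organ, such as the liver that metabolises it or the nervous system that it excites, and RNA from the whole body does not show which. A change in the number of cells of a type and a change in RNA per cell cannot be told apart in such samples.

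The libraries came from pooled whole larvae of NHGRI-1, a zebrafish strain given as wild type, collected at 72 h post fertilisation. Larvae were exposed from 48 h onward to tefluthrin at 60 nM or 2.3 µM, or to acetochlor at 780 nM or 7.8 µM, and the controls were untreated. Each of the 5 groups had 3 libraries, replicates I to III, with 17354405 to 25191374 estimated counts per library and 39557 to 41513 transcripts above 0. Nothing in the labels says that the pools of a group came from separate clutches, so p-values measure the spread between these libraries, which may be technical.

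The files name Ensembl transcripts and do not pair them with genes. None of the identifiers was found in the available tables of gene names (0 of 64995 in each), so no member has a gene name, a role or a position here, and the tissue and pathway marker lists could not be looked up. No transcript lengths were given either, so levels are mainly compared between groups. Where counts of different transcripts stand side by side, they are not corrected for length. All scaled counts are estimated counts divided by the size factor of their library.

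The member with the largest difference was ENSDART00000047050.8. Its scaled counts in libraries I, II and III were 304, 294 and 355 in control, 380.1, 277 and 368 at acetochlor 780 nM and 872, 869.8 and 722 at acetochlor 7.8 µM. At tefluthrin 60 nM they were 384, 390.3 and 380.2, and at 2.3 µM 251, 324 and 336. The acetochlor 7.8 µM libraries stood apart from all 12 others, and every tefluthrin 60 nM library lay above the highest control. The mean was 2.58-fold higher at acetochlor 7.8 µM, 821 ± 86.1, than in control, 318 ± 32.4 (SD, n = 3 in each group). The fitted log2 fold change, from edgeR over all libraries, was 1.37 (SE 0.136) at acetochlor 7.8 µM, 0.10 (SE 0.136) at 780 nM and 0.27 (SE 0.137) at tefluthrin 60 nM.

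ENSDART00000187384.1 followed the same pattern at nearly the same size. It had 283, 294 and 317 scaled counts in the control libraries, 305, 325 and 344 at acetochlor 780 nM and 815, 789 and 575 at acetochlor 7.8 µM. The tefluthrin libraries had 345, 327 and 345 at 60 nM and 242, 255 and 308 at 2.3 µM. Replicate III of acetochlor 7.8 µM was well under the other two replicates of its group but above all 12 other libraries. The log2 fold change was 1.29 (SE 0.126) at acetochlor 7.8 µM and 0.13 (SE 0.126) at 780 nM.

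ENSDART00000019353.9 was the member with the largest difference among the 4 whose estimates were whole numbers in all libraries, that is, with no sign of reads divided between transcripts. Control libraries had 318, 339 and 375 scaled counts, acetochlor 780 nM 361, 369 and 342 and acetochlor 7.8 µM 727, 769 and 531. Tefluthrin 60 nM gave 358, 340.2 and 354 and tefluthrin 2.3 µM 297, 297 and 302. Replicate III was again the lowest acetochlor 7.8 µM library, and the 3 libraries at tefluthrin 2.3 µM lay under all controls. The log2 fold change was 0.97 (SE 0.114) at acetochlor 7.8 µM and -0.22 (SE 0.116) at tefluthrin 2.3 µM.

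ENSDART00000055287.6 had 535, 665 and 567 scaled counts in control, 666, 670.3 and 508 at acetochlor 780 nM and 1072, 1284 and 989.8 at acetochlor 7.8 µM. At tefluthrin 60 nM the values were 672, 710.4 and 686, all above the highest control, and at 2.3 µM 769, 572 and 589. Its log2 fold change at acetochlor 7.8 µM was 0.92 (SE 0.142). Replicate II was the highest library of the group and replicate III the lowest.

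The next 2 members were low and variable. ENSDART00000173047.2 had 67.9, 55.3 and 76.7 scaled counts in control and 94.2, 125 and 148 at acetochlor 7.8 µM, against 54.2, 25.9 and 46.5 at acetochlor 780 nM. It had 46.6, 80.7 and 77.1 at tefluthrin 60 nM and 63.4, 67.5 and 55.4 at 2.3 µM. It was the single member whose acetochlor 780 nM libraries all lay under all controls, which held for 3.28% of the transcripts that met the level conditions. Its log2 fold change at 780 nM was -0.66 (SE 0.285), not called by edgeR's quasi-likelihood test (Benjamini-Hochberg adjusted p = 1). ENSDART00000046933.9, the member with the lowest control mean, had 33.6, 29.1 and 53.9 scaled counts in control, 44.7, 27.2 and 31.8 at acetochlor 780 nM and 69.8, 85 and 61.6 at acetochlor 7.8 µM. It had 63.9, 40.8 and 30.1 at tefluthrin 60 nM and 29, 33.7 and 49.7 at 2.3 µM. Replicate I of tefluthrin 60 nM exceeded replicate III of acetochlor 7.8 µM.

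**Figure D1:**
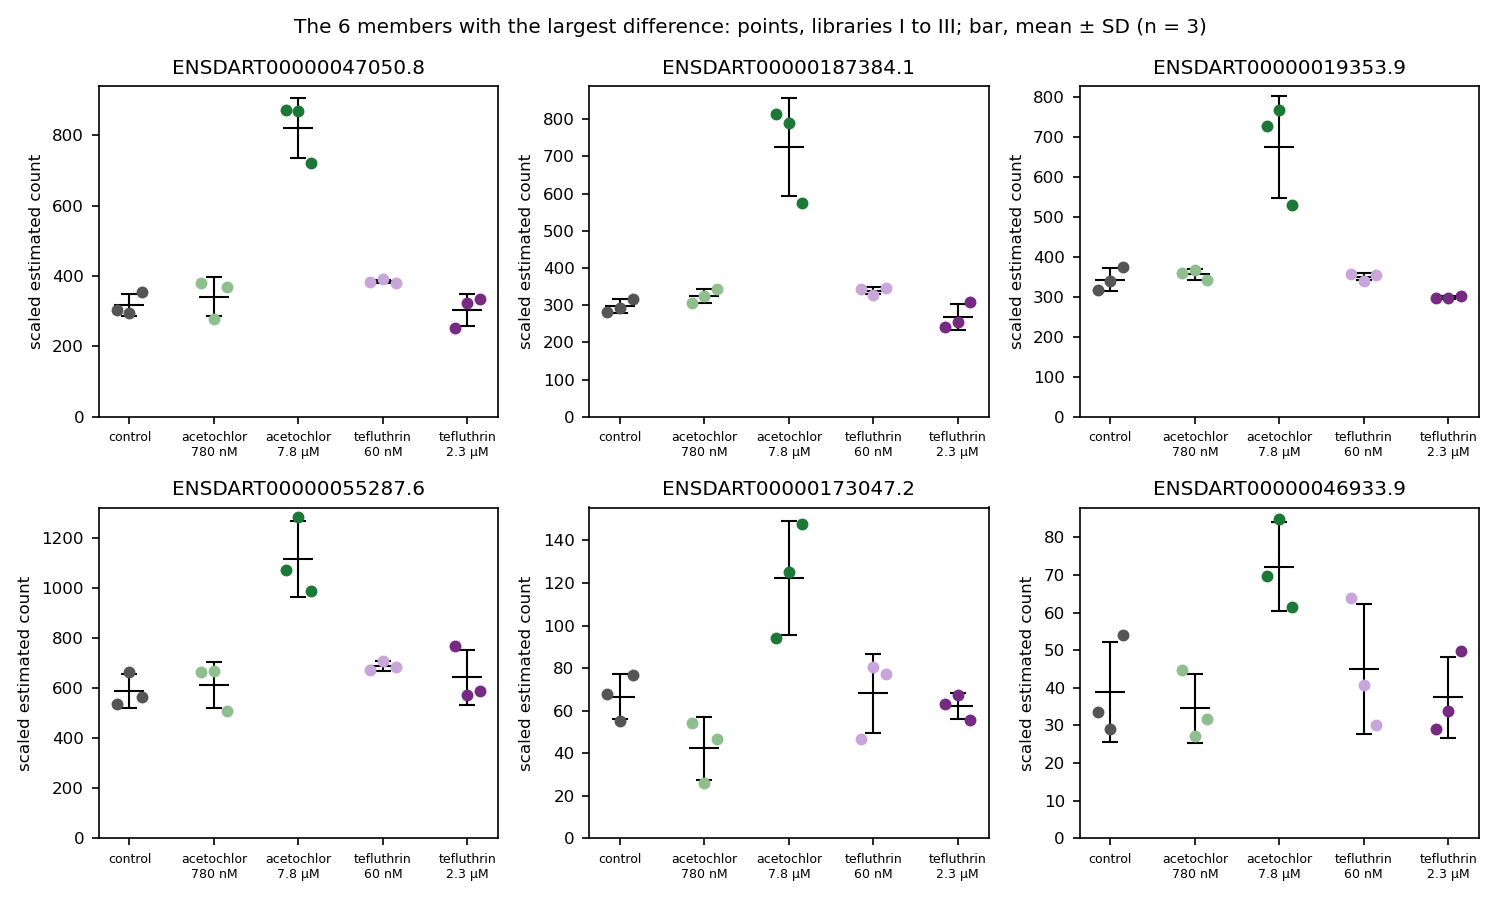
Scaled estimated counts (vertical axis, from 0) of the 6 members with the largest difference in the 5 groups (horizontal axis). Points are libraries I to III from left to right and bars are the mean ± SD (n = 3). The acetochlor 7.8 µM points lie above the control and acetochlor 780 nM points in each panel, as the rule requires, and replicate III is the lowest of them in 5 of the 6 panels.

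Of the 4 members that followed in size, ENSDART00000181627.1 went from 85.8 ± 13.3 to 146 ± 28.2 scaled counts between control and acetochlor 7.8 µM, and ENSDART00000131694.2 from 202 ± 41.9 to 338 ± 30.7 (SD over 3 libraries). ENSDART00000157967.2 went from 111 ± 22.6 to 185 ± 29.4, with replicate II of acetochlor 780 nM, at 157, close under the lowest acetochlor 7.8 µM library at 166. ENSDART00000110715.4 had the smallest relative spread of these in control and went from 830.1 ± 28.3 to 1312 ± 201, with a fitted log2 fold change of 0.66 (SE 0.101). The fitted log2 fold changes of the first 3 were 0.76 (SE 0.278), 0.74 (SE 0.173) and 0.73 (SE 0.191).

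The remaining 8 members differed from control by 0.41 to 0.63 on the log2(mean + 5) scale, with control means between 48.1 and 974 scaled counts. Among them, and chosen after the values were seen, ENSDART00000058789.7 stood on opposite sides of control at the tefluthrin concentrations, with neither difference called by edgeR over all libraries. It had 1031, 951 and 940.2 scaled counts in control, 1241, 1142 and 1198 at tefluthrin 60 nM and 739.8, 833 and 841 at tefluthrin 2.3 µM, so that the former libraries lay above all controls and the latter under them. At acetochlor 7.8 µM it had 1656, 1611 and 1228, and replicate III of that group was under replicate I of tefluthrin 60 nM. The fitted log2 fold change was 0.62 (SE 0.109) at acetochlor 7.8 µM, 0.29 (SE 0.11) at tefluthrin 60 nM and -0.29 (SE 0.11) at tefluthrin 2.3 µM. Both tefluthrin differences were called by another tool, DESeq2, and by edgeR without acetochlor 7.8 µM replicate III. The difference at 2.3 µM was also called with library totals as the only scaling.

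**Figure D2:**
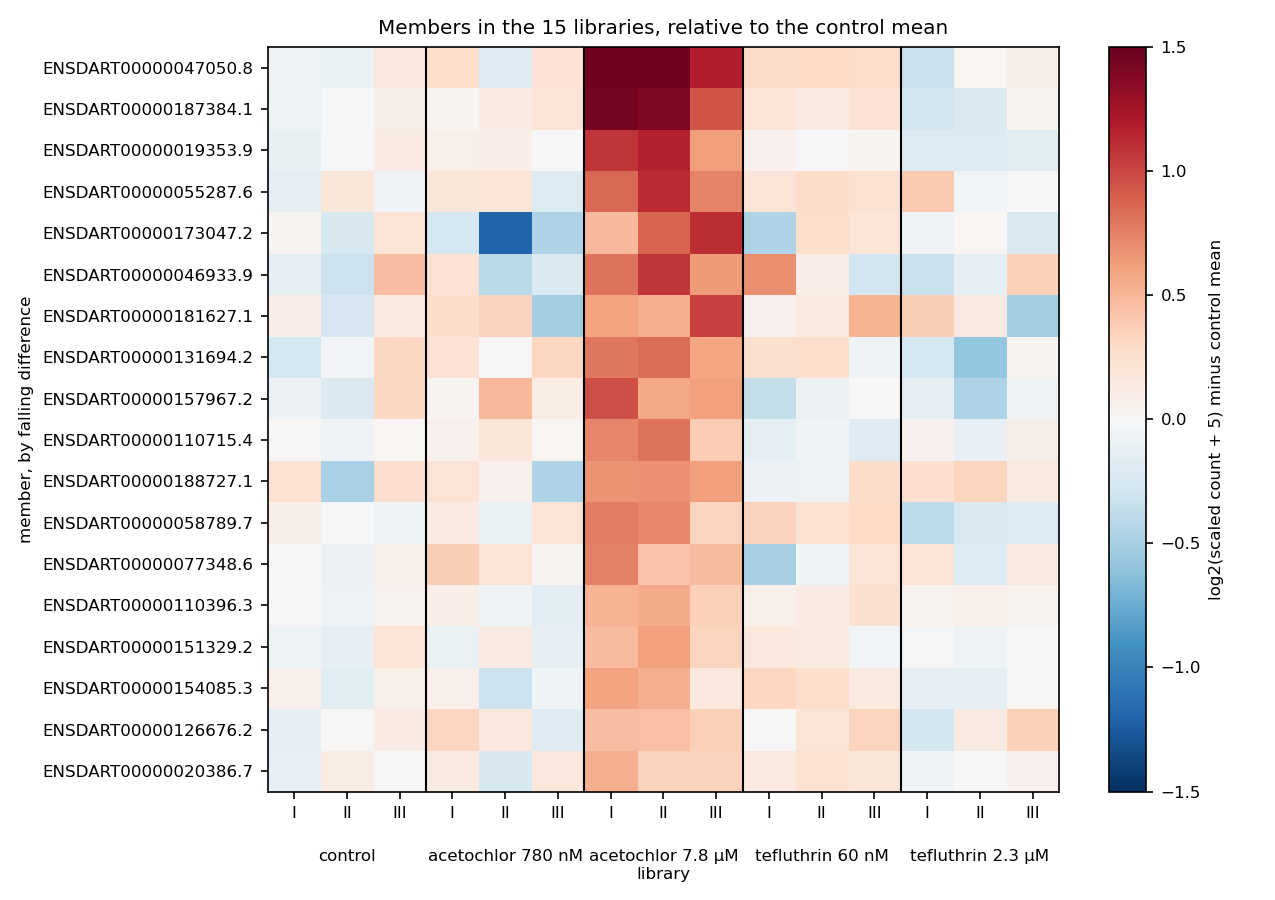
Each row is a member, in order of falling difference, and each column a library. Colour is log2(scaled count + 5) minus the mean of the same quantity over the controls, with red for higher and blue for lower. The acetochlor 7.8 µM columns are red in every row, as the rule requires, with replicate III the palest in most rows. The other columns hold both red and blue and are mostly paler. Exceptions include a deep blue cell of ENSDART00000173047.2 at acetochlor 780 nM replicate II and a red cell of ENSDART00000046933.9 at tefluthrin 60 nM replicate I.

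Over all 18 members the difference between acetochlor 7.8 µM and control ran from 0.41 to 1.36 with a median of 0.68. In linear terms the group mean was 1.34 to 2.58 times control, with a median of 1.62, and 2 members reached 2-fold. In the 3 acetochlor 7.8 µM libraries the median member was 0.75, 0.71 and 0.60 above the control mean for replicates I, II and III on the log2(scaled count + 5) scale. Replicate III was the lowest of the group in 14 members, replicate II in 3 and replicate I in 1. The gap that separates the groups was often small: the lowest acetochlor 7.8 µM library stood 1.02 to 1.90 times above the highest control or acetochlor 780 nM library, with a median of 1.16. Against all 12 other libraries, tefluthrin included, 15 members were separated and 3 were not.

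edgeR's quasi-likelihood test called 6 of the 18 members higher at acetochlor 7.8 µM than in control (Benjamini-Hochberg adjusted p-values under 0.05), where 0.100% of the 35865 transcripts tested were called higher and 0.106% in either direction. Because the rule chose the members on this contrast, the count is a description and nothing is read from it. The 6 were ENSDART00000047050.8, ENSDART00000187384.1, ENSDART00000019353.9, ENSDART00000055287.6, ENSDART00000110715.4 and ENSDART00000110396.3, the last with 536 ± 26.3 scaled counts in control and 749.7 ± 54.2 at acetochlor 7.8 µM. The first 3 were called in all 21 alternative fits. The other 3 were all lost when a library of control (replicate I, II or III) or of tefluthrin 60 nM (replicate I, II or III) was left out. They were also all lost without replicate I or without replicate II of acetochlor 7.8 µM. In each of these fits 3 members were called. Some of the other 3 were lost in further fits. Over the 21 alternatives ENSDART00000055287.6 was called in 12, ENSDART00000110715.4 in 9 and ENSDART00000110396.3 in 7. DESeq2 called 11 of the 18, and 436 of the 35865 transcripts tested. Among all those tested, edgeR called 38 transcripts, but 110 without acetochlor 7.8 µM replicate III and 15 without its replicate II. They numbered 22 to 25 when replicate I of acetochlor 7.8 µM, acetochlor 780 nM or tefluthrin 2.3 µM, replicate I or II of control, or replicate II or III of tefluthrin 60 nM was left out, so the background share moves with the libraries as well.

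Between acetochlor 7.8 µM and 780 nM, edgeR called 4 members higher, against 0.0641% of all transcripts tested (0.0669% in either direction), a contrast that the rule also used. They were ENSDART00000047050.8, ENSDART00000187384.1, ENSDART00000019353.9 and ENSDART00000110396.3. The count was 2 without acetochlor 7.8 µM replicate I, without replicate II or without acetochlor 780 nM replicate III, and 7 without acetochlor 7.8 µM replicate III. ENSDART00000047050.8 and ENSDART00000187384.1 were called in all 15 fits that left out a library. ENSDART00000019353.9 was called in 11, and lost without acetochlor 780 nM replicate I or III or acetochlor 7.8 µM replicate I or II. ENSDART00000110396.3 was called in 3 of the 15, and was also lost with no filter on low counts. Among all those tested, 24 transcripts were called in this contrast, with 66 without acetochlor 7.8 µM replicate III, 9 without its replicate II, 12 without its replicate I and 15 without acetochlor 780 nM replicate II. Between acetochlor 7.8 µM and tefluthrin 2.3 µM it called 15 members higher, against 14.7% of all transcripts. The conditions of the rule fix this direction.

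**Figure D3:**
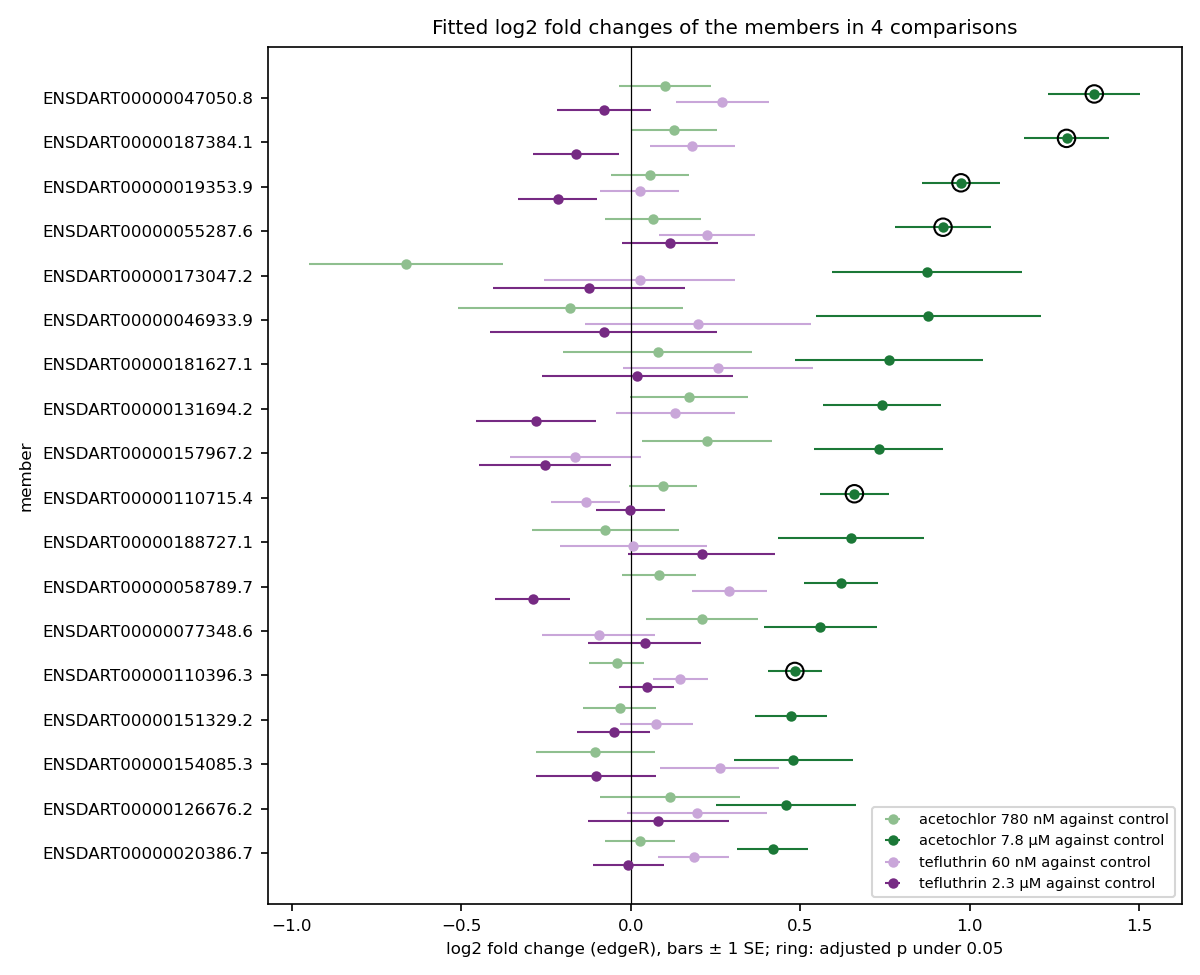
Fitted log2 fold change against control (horizontal axis, edgeR) of each member (vertical axis) at acetochlor 780 nM, acetochlor 7.8 µM, tefluthrin 60 nM and tefluthrin 2.3 µM. Bars are ± 1 SE and rings mark an adjusted p-value under 0.05. All rings lie on acetochlor 7.8 µM, on 6 of the 18 members.

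The lower acetochlor concentration was compared with control to see whether the members were also higher there. At acetochlor 780 nM edgeR called 0 of the 18 members, as it called 0% of all transcripts, of which 909 had an unadjusted p-value under 0.05. DESeq2 called 103 transcripts and limma voom 0, with 0 members in either, and 1 member, ENSDART00000173047.2, which was lower, had an unadjusted p-value under 0.05. The difference between acetochlor 780 nM and control ran from -0.60 to 0.21 on the log2(mean + 5) scale, with a median of 0.07, and 12 members lay above 0. Over the 23895 transcripts that met the level conditions the median was 0.00 and 50.2% lay above 0. In 0 of the 18 members were all acetochlor 780 nM libraries above all controls, against 3.02% of those transcripts. The highest differences belonged to ENSDART00000157967.2 (a log2 fold change of 0.23 (SE 0.191)) and, chosen after its values were seen, ENSDART00000077348.6 (0.21 (SE 0.165)), in both cases little more than 1 SE. This comparison shares its control libraries with the choice of members, and the rule placed acetochlor 780 nM under acetochlor 7.8 µM. The transcripts that met the level conditions were not held to this, so nothing is read from the members' counts beside those shares. The median coefficient of variation of the members at acetochlor 780 nM was 15.1%, against 10.1% in control. It was 14.1% and 10.5% in the 20115 transcripts that met the level conditions and had control means in the range of the members.

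The rule held both tefluthrin groups within 0.3 of control, and inside that limit the members lay mostly on the higher side at 60 nM. The difference between tefluthrin 60 nM and control had a median of 0.16 (range -0.16 to 0.29) and was above 0 in 15 members. Of all transcripts that met the level conditions 49.6% were above 0, but these were held to no tefluthrin limit and no separation from control. At tefluthrin 2.3 µM the median was -0.04 (range -0.27 to 0.21), with 8 members above 0. Both comparisons share the controls with the choice of members. The condition that every control lie under the acetochlor 7.8 µM libraries can favour low controls. Its part in the side of 0 at either tefluthrin concentration was not tested, so nothing is read from that side. All 3 tefluthrin 60 nM libraries lay above all controls in 7 of the 18 members, a larger share than the 22.2% of the transcripts that met the level conditions. The 7 include ENSDART00000047050.8, ENSDART00000187384.1 and ENSDART00000055287.6. At 2.3 µM this held for 0 members, against 28.5%, and 2 members, ENSDART00000019353.9 and ENSDART00000058789.7, were under all controls there, against 27.7%. edgeR called 0 members at tefluthrin 60 nM, where it called 16.4% of all transcripts, and 0 at 2.3 µM, where it called 29.8%. The limit of 0.3 restricts such calls and separations among the members but not among all transcripts, so nothing is read from these counts. At each tefluthrin concentration 1 member, ENSDART00000058789.7, had an unadjusted p-value under 0.05 in edgeR, against 27.8% of all transcripts tested at 60 nM and 39.1% at 2.3 µM. DESeq2 called the same 1 member and limma voom 0. Of the 35865 transcripts tested, DESeq2 called 7457 at 60 nM and 12194 at 2.3 µM, and limma voom 5894 and 10314. Without acetochlor 7.8 µM replicate III edgeR called 1 member at 60 nM, ENSDART00000058789.7, and 2 at 2.3 µM, the same member and ENSDART00000019353.9. In that fit it called 5837 of all transcripts at 60 nM and 10669 at 2.3 µM. The limit of 0.3 restricts these member counts too.

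Most transcripts that met the acetochlor conditions were outside the tefluthrin limit. Of the 23895 transcripts, 1471 had a difference of at least 0.4 at acetochlor 7.8 µM, and in 244 the 3 libraries lay above all control and acetochlor 780 nM libraries. Of these 244, 226 were outside the tefluthrin limit, 129 of them raised by at least 0.3 at both tefluthrin concentrations, 43 raised at 60 nM alone and 8 at 2.3 µM alone. Another 46 were lower by at least 0.3 at 1 or both concentrations, 15 of them while raised by that much at the other. Before separation was required, 97 of the 1471 were inside the tefluthrin limit. The share of all 23895 transcripts outside it is not given here, so nothing is read from these counts about a response common to both chemicals. All these differences share the same 3 controls. In 33 of the 226 the acetochlor difference was larger than in any member.

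**Figure D4:**
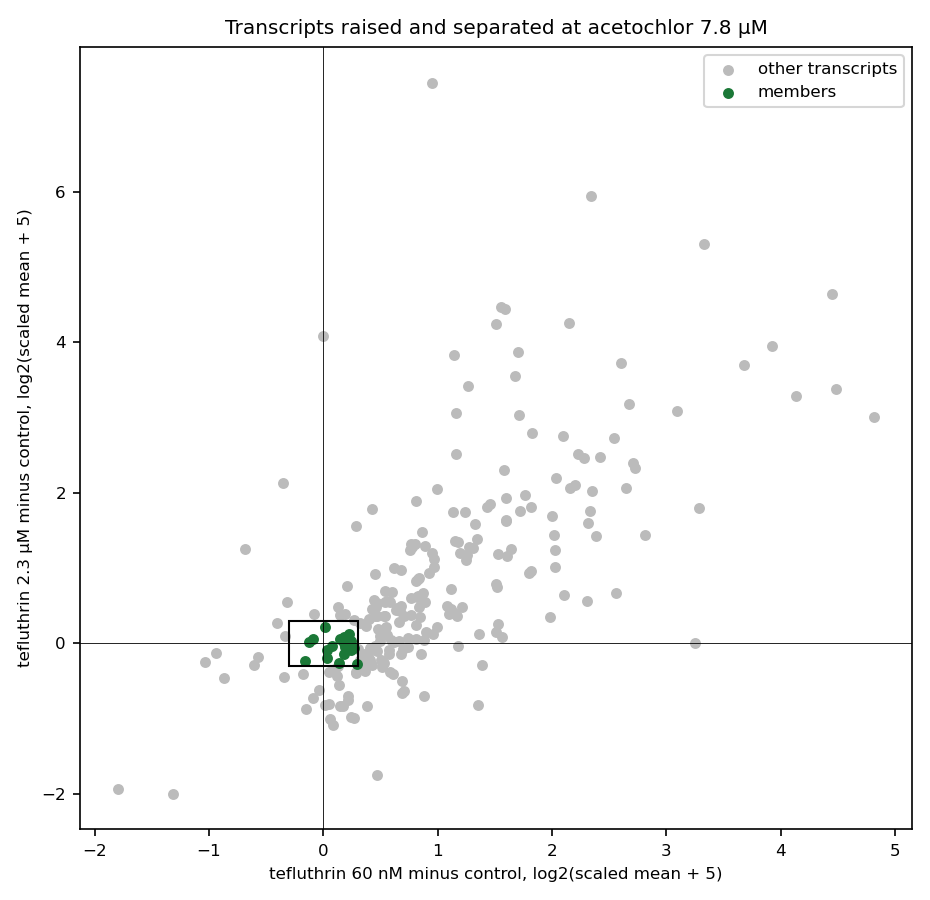
The 244 transcripts that were raised by at least 0.4 at acetochlor 7.8 µM and separated from control and acetochlor 780 nM, plotted by their difference from control at tefluthrin 60 nM (horizontal axis) and 2.3 µM (vertical axis), both on the log2(scaled mean + 5) scale. The square marks the limit of 0.3, and the 18 members inside it are green; most of the 226 other transcripts lie above and to the right of it.

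The limits of the rule cut through a continuum. The members with the smallest acetochlor difference were ENSDART00000020386.7 at 0.41, ENSDART00000126676.2 at 0.42 and ENSDART00000154085.3 at 0.44, and the nearest transcripts under the limit that met all other conditions stood at 0.39, 0.38 and 0.38. In all, 78 transcripts met every condition but this. At the tefluthrin limit, ENSDART00000058789.7 was inside with 0.29 at 60 nM and ENSDART00000047050.8 with 0.27. ENSDART00000152185.3 was outside with 0.30 at 60 nM, and ENSDART00000174522.2 with 0.31 at 2.3 µM although its acetochlor difference was 1.99, larger than that of any member. With a tefluthrin limit of 0.2, 10 of the 18 members remained. Without the condition on acetochlor 780 nM, 43 transcripts passed, the 18 members among them.

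The 5 transcripts outside the members whose profile over the 15 libraries was most like the mean profile of the members all failed the tefluthrin limit. Likeness was Pearson's r of log2(scaled count + 5), given as a description. The closest, ENSDART00000145251.2 (r = 0.954), had 340.2 ± 10.8 scaled counts in control, 302 ± 27 at acetochlor 780 nM, 752 ± 103 at acetochlor 7.8 µM, 366 ± 13.5 at tefluthrin 60 nM and 268 ± 10.2 at tefluthrin 2.3 µM (SD, n = 3). It was outside the limit at 2.3 µM, with a difference of -0.34. ENSDART00000154164.3 (r = 0.949) had 758 ± 151 in control and 2057 ± 475 at acetochlor 7.8 µM, and ENSDART00000134921.3 (r = 0.941) 957 ± 106 and 3001 ± 597. At tefluthrin 60 nM these stood at 1131 ± 51.1 and 1553 ± 50.5 and at 2.3 µM at 686 ± 95 and 907 ± 152. ENSDART00000087724.6 (r = 0.947) differed from control at both tefluthrin concentrations, by 0.46 and 0.49. ENSDART00000010282.9 (r = 0.907) differed from control by 0.22 at 60 nM and differed by -0.71 at 2.3 µM.

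Because the rule used all libraries of control and acetochlor 7.8 µM, the size of the difference was also measured in libraries that a choice had not used. The rule was applied 9 times, each time without 1 control and 1 acetochlor 7.8 µM library, and the difference between the 2 libraries left out was taken over the transcripts so chosen. With fewer libraries to separate, 44 to 66 transcripts were chosen, 11 to 16 of the 18 members among them. In the libraries used to choose, their median difference was 0.50 to 0.58. In the libraries left out it was 0.07 to 0.27 in 8 of the 9 pairs, with 59.1% to 66.7% of the transcripts above 0. In the remaining pair, control replicate III and acetochlor 7.8 µM replicate III, the median was -0.13 and 37.7% were above 0. The median over all transcripts that met the level conditions stayed between -0.01 and 0.01. A difference of at least 0.4 was kept by 24.2% to 44.4% of the chosen transcripts in the 8 pairs, against 9.13% to 14.6% of all those that met the level conditions, and by 8.20% in the remaining pair, against 12.1%. These are values of 1 library against 1, with no test, and the looser choice makes them no direct measure for the 18 members. Each library left out recurs in several pairs, and the choices share transcripts, so the 9 pairs are not separate replications.

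**Figure D5:**
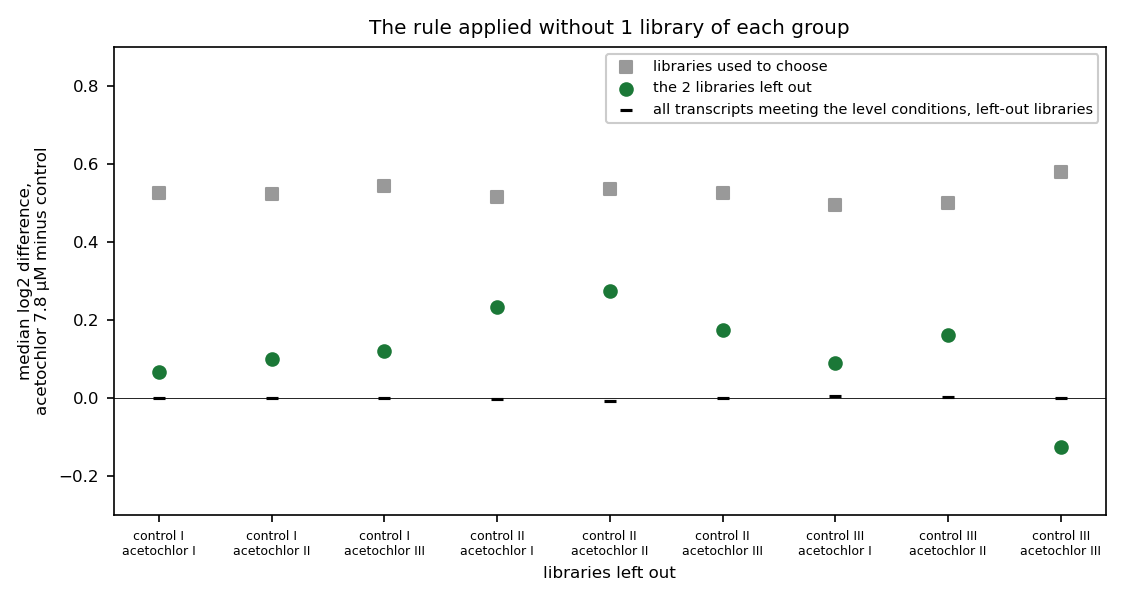
Median log2 difference between acetochlor 7.8 µM and control (vertical axis) for the transcripts chosen without the control and acetochlor 7.8 µM library named on the horizontal axis. Squares give the libraries used to choose, circles the 2 libraries left out and dashes all transcripts that met the level conditions in the left-out libraries. The circles lie under the squares in all 9 pairs and under 0 in the pair of replicates III.

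Members were compared with other transcripts in properties that were no condition of the rule, though the rule can constrain some of them. Whole estimates in all libraries were found in 4 of the 18 (22.2%), against 24.5% of the transcripts that met the level conditions. The 4 were ENSDART00000019353.9, ENSDART00000058789.7, ENSDART00000077348.6 and ENSDART00000151329.2, the last 2 named after their values were seen, with acetochlor differences of 0.47 to 0.96. In the other 14, with differences of 0.41 to 1.36, reads were divided between transcripts in at least 1 library, so the level of each is uncertain, since the estimates could divide reads between near-identical transcripts. The median coefficient of variation between replicates at tefluthrin 2.3 µM was 11.5% in the members and 11.6% in the 20115 transcripts with control means in their range. At tefluthrin 60 nM it was 6.91% and 11.0%, and at acetochlor 7.8 µM 14.5% and 11.8%, the latter a group whose spread the rule constrains. Levels were matched by the range of control means alone. The median control mean was 308 scaled counts in the members and 180 in all transcripts that met the level conditions, neither corrected for transcript length. Raw estimates of the members ran from 24.8 to 1861 counts per library, and together they held 0.0254% to 0.0566% of a library.

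After the group mean was removed from log2(scaled count + 5), the 153 pairs of members had a mean Pearson's r of 0.20 over the 15 libraries. For pairs of the 20115 transcripts in the same range of control means it was 0.00. Both are given as a description since the points share libraries and depth. Scaling centres each library on its transcripts, which holds a mean over so many near 0, so nothing is read from the contrast. The pairs of members ranged from -0.64 to 0.81. The highest pair was ENSDART00000058789.7 with ENSDART00000154085.3 (r = 0.807). ENSDART00000187384.1 and ENSDART00000019353.9 had r = 0.779 within groups and r = 0.980 over the unadjusted libraries. The rule chose both for being higher in the same acetochlor 7.8 µM libraries, which raises the latter value, so nothing is read from it. Replicate III of control had a median member level 0.12 above the control mean, against -0.06 and -0.09 for replicates I and II, while replicate III of acetochlor 7.8 µM was the lowest of its group. The part of these libraries in the correlations was not tested.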

How the data were processed

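Estimated counts per Ensembl transcript were deposited by the authors, 1 file per library, not normalised for depth, per the file headers and values. Salmon 1.6.0, FastQC, MultiQC and the build GRCz11 are named in the submitters' processing notes. The annotation release is not given in the sources used here. Groups were taken from the treatment labels, which give micromolar for the higher tefluthrin group where the column headers give nanomolar.

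Size factors for levels were medians of ratios over the 29953 transcripts above 0 in all libraries (0.831 to 1.28). For tests, estimates were rounded to whole numbers, filtered with edgeR's filterByExpr (35865 transcripts, at least 99.8% of each library), scaled with TMM and fitted in 1 quasi-likelihood model with group as its term over all 15 libraries (edgeR 4.0.16, limma 3.58.1, DESeq2 1.42.0, R 4.3.3, Python 3.11.15, matplotlib 3.10.9). Two-sided p-values were adjusted over all transcripts tested. An SE is the log2 fold change divided by the square root of F. Alternatives were other scalings, filters and tools, a replicate block and each library left out. Estimates were called whole within 0.0005.

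The members and lists were chosen with earlier results of these data known. The 10 members with the largest difference were named and values in every library were given for the first 6. Gene lists and tissue markers were set aside for want of gene names. Libraries within groups were checked for duplicates and gave a chi-square of 2.94 to 22.9 per degree of freedom over 7277 to 7288 transcripts with whole estimates, so none was a duplicate within sampling noise. This does not show that the pools were independent. The acetochlor 780 nM pairs gave the largest values, 9.42, 11.06 and 22.9, and the largest in another group was 7.56. Depth limits the precision of members with few counts. No molecular identifiers are mentioned in the labels, so reads may not be independent molecules.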

Additional observations from a re-analysis of the deposited data

How the results depend on the processing

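Of the 18 members, 18 were chosen again with TMM scaling (18 chosen in all) and with a pseudocount of 1 (19 in all), 14 with library totals as the only scaling (37 in all) and 10 with a tefluthrin limit of 0.2. When 1 library was left out, 13 to 18 members were chosen again. The number chosen in all grew to 63 without acetochlor 7.8 µM replicate III, 59 without replicate I and 43 without replicate II of that group, and to 28 without acetochlor 780 nM replicate III; each such fit has fewer libraries to separate. Members called at acetochlor 7.8 µM against control numbered 6, with 3 to 7 over the fits that left out a library, 11 with DESeq2 and 1 of the 4 members with whole estimates. Over all transcripts the calls in this contrast numbered 38, with 15 to 110 over the fits that left out a library, 436 by DESeq2, 75 with library totals and 24 with the replicate block. Against acetochlor 780 nM the members called numbered 4, with 2 to 7 over the fits that left out a library, 9 with DESeq2 and 1 of the 4 with whole estimates, and all transcripts called numbered 24, with 9 to 66, 214 by DESeq2 and 12 with the replicate block. At tefluthrin 60 nM the members called numbered 0, with 0 to 1 over the fits that left out a library and 1 with DESeq2. All transcripts called there numbered 5875, with 3997 to 6202 over those fits and 7457 by DESeq2. At tefluthrin 2.3 µM the members called numbered 0, with 0 to 2 and 1 with DESeq2. All transcripts called there numbered 10688, with 8545 to 10953 and 12194 by DESeq2. Library totals gave 2 members and 11144 of all transcripts called at tefluthrin 2.3 µM, where that scaling moved the median over all transcripts tested to -0.15 (log2). Against tefluthrin 2.3 µM 15 members were called, with 11 to 15 over the fits that left out a library and 4 of 4 with whole estimates. All transcripts called in this contrast numbered 7949 to 10418 over the fits that left out a library. The median log2 fold change of the members at acetochlor 7.8 µM was 0.70, with 0.62 (without control replicate II) to 0.81 (without control replicate III) over those fits and 0.59 in the 4 with whole estimates. At acetochlor 780 nM it was 0.07, with 0.00 to 0.12. The median difference in left-out libraries was 0.12, the same with a pseudocount of 1 (0.12) and 0.11 with TMM scaling. The cause of these changes was not tested. The fold changes of the 10 named members at acetochlor 7.8 µM against control kept their sign in the alternatives run. The rule placed every acetochlor 7.8 µM library above every control, which largely fixes that sign, so nothing is read from it. Their signs in the other contrasts were not compared.

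No pairing by replicate number was seen in correlations of deviations from the group means. Same-numbered libraries of different groups had values between -0.13 and 0.09 (median -0.01), and differently numbered ones between -0.10 and 0.10 (median 0.01). Whether same-numbered libraries shared a clutch or batch was not tested. With the replicate block, edgeR called 4 members at acetochlor 7.8 µM, 0 at 780 nM, 3 between the acetochlor concentrations, 0 at each tefluthrin concentration and 14 against tefluthrin 2.3 µM. The median log2 fold changes of the members at acetochlor 7.8 µM and 780 nM were 0.70 and 0.07. Of all transcripts it called 24, 0 and 12 in the first 3 contrasts. It called 5276 at tefluthrin 60 nM, 9963 at 2.3 µM and 9492 between acetochlor 7.8 µM and tefluthrin 2.3 µM.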
